A study of Mus musculus with 24 samples.

Results

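Gene desert peaks are intergenic open chromatin regions that lie far from annotated gene starts. Here they were the consensus peaks whose annotation class is Intergenic and whose distance to the nearest annotated transcription start site (TSS) exceeds 100 kb in either direction. They numbered 4702 of 150646 peaks, or 3.12%. The assay was ATAC-seq, where Tn5 transposase tags open DNA with sequencing adapters, applied to small intestinal epithelial cells of aged and young C57BL/6JRj mice sorted as EpCam+ CD45- after EDTA and trypsin digestion. There were 3 aged libraries, numbered 1, 2 and 4, and 3 young libraries with the same numbers, each sequenced on 4 lanes that share a single column of counts. The series' design text gives 20 to 22 months for aged and 2 to 3 months for young mice, in sentences that describe other assays, and the libraries' own labels say only aged and young. Whether every library is a mouse of its own is not stated in the labels, and the p-values speak only of the spread among the 6 libraries. The design implies a single comparison, aged over young.

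As background, distal open chromatin holds enhancers, silencers and insulators, which can act on promoters across long stretches of DNA through looping. Some of the best known developmental enhancers lie inside gene deserts, and the annotated gene nearest to such an element need not be the gene it acts on. Unannotated promoters, many of them of long non-coding RNAs, can also appear as distal peaks. The nearest gene is therefore used below as a place name.

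Desert peaks lay between 100011 and 1017736 bp from a TSS, with a median of 151030 bp and a middle range of 120378 to 198700 bp. They were spread over 1102 nearest genes, with 2359 upstream and 2343 downstream of the TSS. Their number depended on the chromosome. On chromosome 8 they made up 19.9% of intergenic peaks (542 peaks), on chromosome 12 16.01% (413 peaks) and on chromosome 13 14.8% (458 peaks). On chromosomes 1, 3 and 11 they made up 2.64% (86 peaks), 2.48% (67 peaks) and 3.30% (105 peaks), although chromosome 11 held more peaks in all (10577) than chromosome 8 (7872). On these 6 chromosomes the number of different nearest genes that the annotation assigned to all peaks was lower where the share was higher, with 1367 on chromosome 8, 937 on chromosome 12 and 1089 on chromosome 13, against 2266 on chromosome 1, 1850 on chromosome 3 and 2293 on chromosome 11. Other chromosomes did not follow this order, since chromosome X had 957 nearest genes and a share of 2.96%, and chromosome 19 had 822 and 8.10%. The part that the density of annotation plays in this pattern was not tested.

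**Figure D1:**
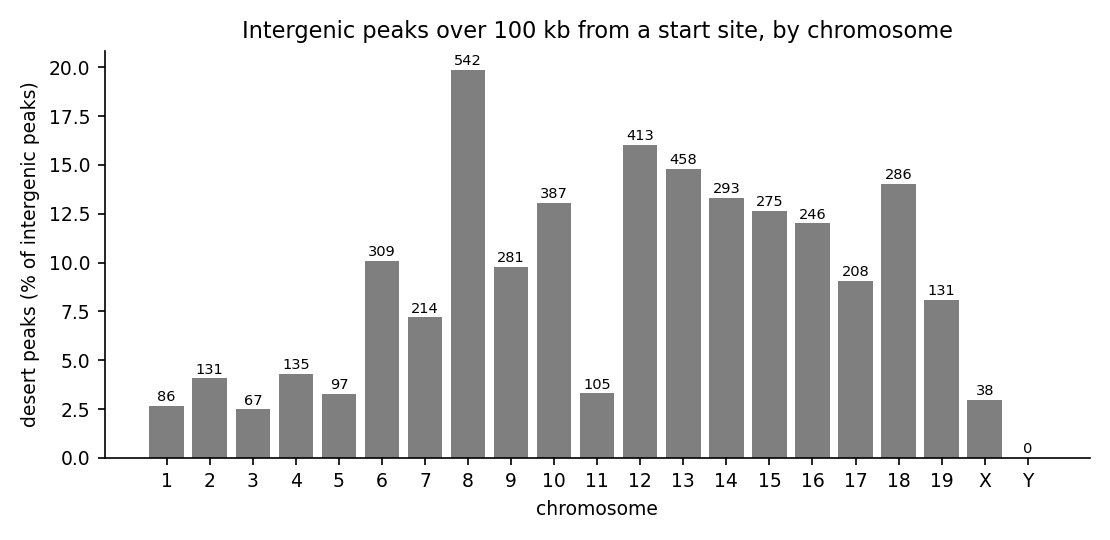
Bars give gene desert peaks as a percentage of all intergenic peaks of a chromosome, with the number of desert peaks above each bar. Chromosomes 1 to 5, 11 and X lie between 2.48% and 4.28%, chromosome 8 reaches 19.9% and chromosome Y has none.

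The label fitted the peaks only in part when a second annotation was used. In RefSeq's gene models on GRCm38.p6, 1060 of the 4702 peaks (22.5%) lay inside a gene, 875 of them in a long non-coding RNA and 169 in a protein-coding gene. Of all desert peaks, 690 (14.7%) were also over 100 kb from every RefSeq gene. Peaks outside RefSeq genes had a median gap of 35111 bp to the nearest one. In 70 desert peaks the peak overlapped the window from 250 bases before to 50 bases after a RefSeq gene start, and these belonged to 67 symbols.

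Sequences of 6 such windows are shown, since they are the places in the desert where a transcript start is annotated. The first 5 belong to the desert peaks that overlap such a window and were called between ages, and the last to an uncalled one for contrast. They were chosen after their values were seen, apart from the peaks of 4930543I11Rik and LOC108167368. All are from RefSeq on GRCm38.p6, 5′ to 3′ on the strand of the gene, in lower case with motif matches in capitals.
4930543I11Rik: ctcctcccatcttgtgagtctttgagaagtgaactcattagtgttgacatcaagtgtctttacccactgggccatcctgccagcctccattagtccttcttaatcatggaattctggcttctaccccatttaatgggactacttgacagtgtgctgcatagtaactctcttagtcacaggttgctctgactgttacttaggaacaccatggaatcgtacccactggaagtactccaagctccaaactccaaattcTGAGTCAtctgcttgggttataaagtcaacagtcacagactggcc
Gm39081: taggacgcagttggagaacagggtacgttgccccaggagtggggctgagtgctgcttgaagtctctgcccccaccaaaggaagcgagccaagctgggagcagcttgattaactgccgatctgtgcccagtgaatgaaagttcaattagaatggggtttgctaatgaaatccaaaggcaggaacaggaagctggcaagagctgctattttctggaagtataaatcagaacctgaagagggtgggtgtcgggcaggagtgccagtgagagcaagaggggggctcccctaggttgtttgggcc
1700025J12Rik: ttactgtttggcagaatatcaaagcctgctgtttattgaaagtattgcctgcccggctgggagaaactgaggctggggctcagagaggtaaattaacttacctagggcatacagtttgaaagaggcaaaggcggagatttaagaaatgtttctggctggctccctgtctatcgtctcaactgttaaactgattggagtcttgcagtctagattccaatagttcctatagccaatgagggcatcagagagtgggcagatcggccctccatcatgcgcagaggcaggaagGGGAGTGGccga
Gm41584: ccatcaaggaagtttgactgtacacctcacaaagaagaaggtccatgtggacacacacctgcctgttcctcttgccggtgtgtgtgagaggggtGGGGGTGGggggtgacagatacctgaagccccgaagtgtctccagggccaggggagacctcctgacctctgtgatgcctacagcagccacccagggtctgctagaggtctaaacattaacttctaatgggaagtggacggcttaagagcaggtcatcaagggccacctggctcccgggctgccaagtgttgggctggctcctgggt
LOC108167368: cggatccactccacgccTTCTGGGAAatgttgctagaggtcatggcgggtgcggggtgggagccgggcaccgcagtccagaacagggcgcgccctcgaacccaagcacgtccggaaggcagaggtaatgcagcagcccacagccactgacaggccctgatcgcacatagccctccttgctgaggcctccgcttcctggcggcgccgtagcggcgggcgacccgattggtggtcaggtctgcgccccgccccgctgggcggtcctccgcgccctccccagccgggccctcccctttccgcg
4930554I06Rik: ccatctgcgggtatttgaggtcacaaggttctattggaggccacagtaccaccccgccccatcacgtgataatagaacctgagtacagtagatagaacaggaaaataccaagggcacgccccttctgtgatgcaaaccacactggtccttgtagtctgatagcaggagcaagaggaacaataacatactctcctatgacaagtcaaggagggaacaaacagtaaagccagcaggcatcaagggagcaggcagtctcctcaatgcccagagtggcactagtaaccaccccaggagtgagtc

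These windows are at chr10:67785493-67785792 (4930543I11Rik, plus strand), chr7:121539826-121540125 (Gm39081, minus), chr7:121589653-121589952 (1700025J12Rik, plus), chr17:45885761-45886060 (Gm41584, plus), chr12:20614713-20615012 (LOC108167368, plus) and chr19:21104460-21104759 (4930554I06Rik, plus). The peaks cover the whole 300 bases of 4930543I11Rik, Gm41584 and 4930554I06Rik, 184 bases of LOC108167368, 127 bases of Gm39081 and 107 bases of 1700025J12Rik. Each window was searched on both strands for short core motifs of factors that act in the gut. The letters were TGANTCA for AP-1, GGGNGTGG for KLF factors, TTCNNNGAA for STAT factors, AGATAA for GATA factors, TGTTTAC for FOXA, TTTATGG for CDX and CAAAGTCCA for HNF4. The capitals mark an AP-1 match in 4930543I11Rik, a KLF match in 1700025J12Rik and in Gm41584 and a STAT match in LOC108167368, each the only match of its window, so none overlaps another. Gm39081 and 4930554I06Rik held no match. The KLF match in 1700025J12Rik and the STAT match in LOC108167368 lie in parts of the windows that the peaks do not cover.

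Of 32817 RefSeq promoter windows of the same length, 7.81% held the AP-1 letters, 17.6% the KLF, 8.29% the STAT, 11.2% the GATA, 3.65% the FOXA, 2.75% the CDX and 0.475% the HNF4 letters. Among the 75 windows that overlap desert peaks these letters occurred in 13, 10, 10, 15, 3, 2 and 1 windows, in the same order. LOC108167368 stood out in base composition, with 70.3% G and C and 29 CpG dinucleotides, where the median window of all had 52.7% and 7. The 75 windows over desert peaks had medians of 50.3% and 5.

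The deepest library, aged 2, had 23935291 counts in peaks and a median of 31 counts per desert peak, and the shallowest, young 4, had 6149680 and 9. Accessibility is given below as normalised read counts (CPM). Of 8 epithelial marker genes, 7 had a consensus peak within 1000 bp of the TSS, with summed CPM of 226 to 259 in aged and 243 to 274 in young libraries. None of 8 leukocyte markers, among them Ptprc, which encodes CD45, had one. Of 8 markers of fibroblasts, endothelium, muscle and nerve, 4 had one, with summed CPM of 16.6 to 16.9 in aged and 15.0 to 18.3 in young libraries. Since these were bulk libraries, a change in the number of cells of a type and a change in accessibility per cell cannot be told apart.

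Of the 4702 desert peaks, 3686 had enough counts to be tested and 1016 did not. The comparison of ages called 102 of them, 68 higher and 34 lower in aged epithelium, at a Benjamini-Hochberg adjusted p below 0.05 over all 129588 tested peaks in edgeR's quasi-likelihood test. That is 2.77% of tested desert peaks, beside 1.6% of all tested peaks (higher 1.84% beside 1.07%, lower 0.922% beside 0.528%). Intergenic peaks at 10 to 100 kb from a TSS had 415 higher and 88 lower calls among 27147 tested (1.85%). The typical desert peak hardly moved, with a median log2 fold change of -0.025 beside -0.0038 for all tested peaks. All 3 aged libraries were above all 3 young ones in 264 tested desert peaks and below them in 301, 15.3% in both directions beside 13.9% of all tested peaks (7.32% above and 6.54% below). Of the 102 called peaks 100 were among these, as were 2051 of the 2077 called among all tested peaks. Of the 68 higher desert peaks, 53 were over 2-fold and 19 over 4-fold, and of the 34 lower ones 33 and 15. Among all tested peaks, 973 of 1393 higher calls were over 2-fold and 254 over 4-fold. Of 684 lower calls among all tested peaks, 560 were over 2-fold and 204 over 4-fold. Every call between 1 and 2 CPM was over 2-fold, both in desert peaks and in all peaks. The fit behind these counts had age as its only term and left out the pairing of libraries by number described below. With the library number as a block the counts were 108 higher and 71 lower, beside 1.99% and 1.1% of all tested peaks (3.09% in either direction). DESeq2 called 37 higher, and leaving out young 2 left 36 higher and 25 lower.

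**Figure D2:**
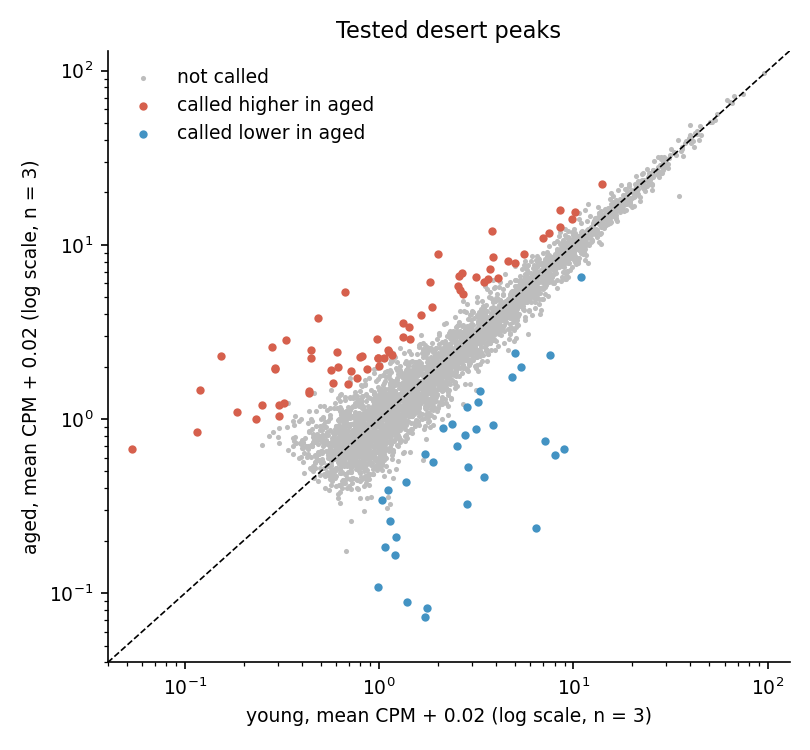
Each point is a tested desert peak, with its mean CPM in aged libraries on the vertical axis and in young libraries on the horizontal axis, both on log scales with 0.02 added. Most peaks follow the dashed line of equal values, and the 68 higher and 34 lower peaks lie mainly below 10 CPM.

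Desert peaks were weaker than the average peak, with a median of 1.82 CPM among those tested beside 2.71 for all, and 382 of them (10.4%) exceeded 10 CPM beside 20.4% of all. The shares called were also counted by strength. Of desert peaks between 1 and 2 CPM 3.71% were called, beside 1.96% of all peaks of that strength, and between 2 and 5 CPM 3.15% beside 1.99%. Above 5 CPM 1.91% were called beside 1.17%. Calls were then counted by distance. At 100 to 200 kb 56 of 2778 tested peaks were higher and 27 lower, at 200 to 500 kb 9 of 864 were higher and 6 lower, at 500 to 1000 kb 3 of 39 were higher and 1 lower, and beyond 1000 kb none of 5 was called. The block raised the calls to 131 at 100 to 200 kb and 41 at 200 to 500 kb. Peaks just inside the distance limit, at 100 to 110 kb, had 14 calls among 499 tested, and those just outside, at 90 to 100 kb, had 12 among 630.

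**Figure D3:**
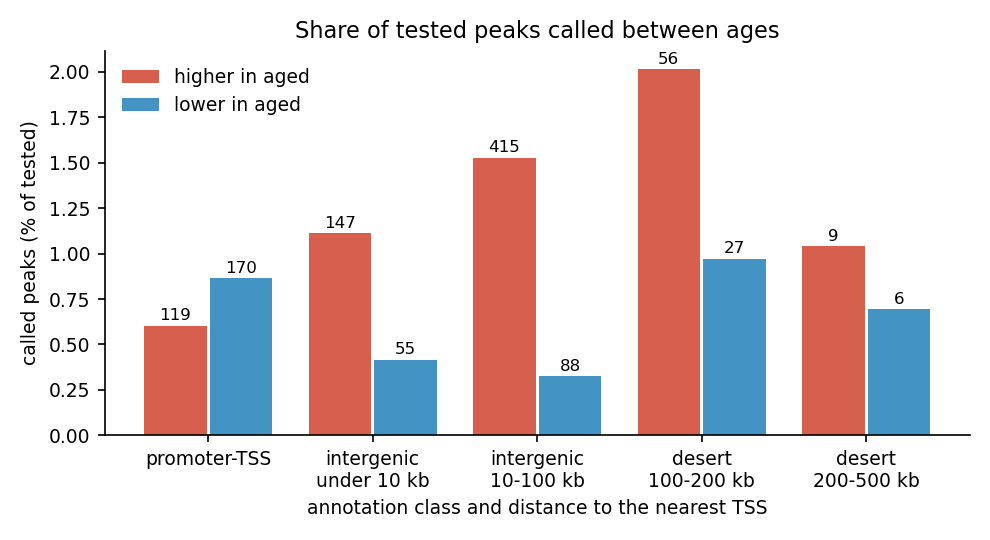
Bars give the percentage of tested peaks called higher and lower in aged epithelium for promoter-TSS peaks and for intergenic peaks by distance to the nearest TSS, with the number of peaks above each bar. At 100 to 200 kb 56 peaks were higher and 27 lower, and at 200 to 500 kb 9 and 6.

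Desert peaks with gaps of at most 12.5 kb were merged into 1680 clusters, of which 936 held a single tested peak and 408 held 3 or more. Summed over each cluster, 41 clusters were higher and 26 lower in aged epithelium (2.44% and 1.55%, beside 1.26% and 0.892% of all 31511 clusters made from all peaks in the same way, 2.15% in either direction). In 10 clusters at least 2 peaks were called higher, and these held 28 of the 68 higher peaks. In 5 clusters at least 2 were called lower, holding 11 of the 34. The same counts over clusters of all peaks are not given here. Neighbouring calls also occurred away from desert peaks, as in 10 lower peaks near Kcnt2, of which 0 were desert peaks. With the block 76 clusters were higher and 62 lower, and without young 2 the counts were 23 and 20. Without aged 4, 27 clusters were higher, and without aged 1, 17 were lower.

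Among the higher clusters was one downstream of Hs3st2, which encodes a heparan sulfate 3-O-sulfotransferase, an enzyme that modifies heparan sulfate chains. At chr7:121522220-121540244, 130024 to 147825 bp from its TSS, all 5 tested desert peaks were higher. Their summed accessibility was 10.4, 9.34 and 10.5 CPM in aged 1, 2 and 4, against 1.65, 1.19 and 1.57 CPM in young 1, 2 and 4. Every aged library was well above every young one, with little spread inside either age. The log2 fold change of the sum was 2.79 ± 0.21 (SE; adjusted p = 2.09e-09, edgeR). The strongest of the 5, chr7:121539319-121539824, had 5.79, 4.55 and 5.62 CPM in aged libraries, against 0.824, 0.792 and 0.318 CPM in young ones. Its neighbour chr7:121539999-121540244 overlaps the Gm39081 window shown above, upstream of the start. It had 1.08 ± 0.147 CPM in aged and 0.165 ± 0.0308 CPM in young libraries (SD, n = 3 each). The other 3 peaks had log2 fold changes of at least 2.12, and the peak with that smallest change lost its call in DESeq2 and without aged 2, aged 4 or young 2. The peak at chr7:121536073-121536239 also lost its call without young 2.

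This change ran on past the desert peaks on both sides. Toward the gene, 4 tested peaks in annotated introns, which are not desert peaks, were higher by log2 fold changes of 1.97 to 3.95. They lay 93174 to 99036 bp from the TSS of the gene. Away from it, a pair of desert peaks nearest to 1700069B07Rik, an antisense transcript, had summed values of 3.66 ± 0.522 CPM in aged and 0.837 ± 0.137 CPM in young libraries. One of these overlaps the 1700025J12Rik window shown above, upstream of the start. That peak, with a log2 fold change of 1.71 ± 0.40, lost its call in DESeq2 and without aged 1, aged 2 or young 1. All 11 peaks follow each other with no uncalled tested peak between them over 105455 bp, chr7:121485402-121590856, and sum to 24.6 ± 0.770 CPM in aged and 3.94 ± 0.248 CPM in young libraries. By number of peaks it was the longest unbroken series of calls in 1 direction over all tested peaks, though others spanned more bases, and 1541 of 1753 such series were single peaks. The adjoining tested peaks on either side had log2 fold changes of 1.13 (adjusted p = 0.145) and 0.74 (adjusted p = 0.262). The peak at the Hs3st2 promoter itself was not called, with 0.477 ± 0.234 CPM in aged and 0.783 ± 0.127 CPM in young libraries (log2 fold change -0.83, adjusted p = 0.646, edgeR).

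A second cluster lay downstream of Tmem74, which encodes a transmembrane protein linked to autophagy, at chr15:43678902-43700036. All 5 tested peaks were higher, with sums of 15.3, 17.5 and 23.7 CPM in aged 1, 2 and 4, against 2.66, 2.68 and 5.17 CPM in young 1, 2 and 4. The library numbered 4 was the highest of each age, and the ages did not overlap. The log2 fold change of the sum was 2.59 ± 0.21 (adjusted p = 5.35e-09, edgeR), and the single peaks reached up to 3.11. One of the 5, chr15:43699036-43699190, lost its call in DESeq2 and without aged 4. The strongest, chr15:43678902-43679292, had 7.33, 9.65 and 9.48 CPM in aged libraries, against 1.24, 1.24 and 3.50 CPM in young ones. No other peak within 100 kb of this cluster was tested, no RefSeq gene lay within 108377 bp of any of its peaks, and no consensus peak lay within 1000 bp of the Tmem74 TSS.

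Another cluster, at chr11:64315111-64321186, was upstream of Hs3st3a1, another heparan sulfate 3-O-sulfotransferase. Its 3 peaks summed to 5.78, 6.09 and 9.20 CPM in aged 1, 2 and 4, against 0.596, 0.595 and 0.941 CPM in young 1, 2 and 4, a log2 fold change of 3.42 ± 0.29 (adjusted p = 1.30e-08, edgeR). The largest change of any higher desert peak named here was its peak at chr11:64320935-64321186, with 2.40, 1.92 and 2.50 CPM in aged libraries, against 0.0915, 0.149 and 0.159 CPM in young ones. That peak rests on 129 counts in aged and 6 in young libraries. At the Hs3st3a1 promoter the tested peak had 3.15 ± 1.11 CPM in aged and 2.36 ± 0.218 CPM in young libraries and was not called (adjusted p = 0.740, edgeR).

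The last, at chr15:11533009-11539798, was nearest to Tars, which encodes the cytoplasmic threonyl-tRNA synthetase. Its 3 peaks were already open in young epithelium. They summed to 11.4, 13.2 and 13.9 CPM in aged 1, 2 and 4, against 4.72, 4.17 and 4.39 CPM in young 1, 2 and 4, a log2 fold change of 1.53 ± 0.17 (adjusted p = 1.08e-06, edgeR). The strong peak at the Tars promoter had 49.7 ± 2.80 CPM in aged and 52.7 ± 5.23 CPM in young libraries and was not called (adjusted p = 0.946, edgeR). As at Tmem74 and Hs3st3a1, no other peak within 100 kb was tested.

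**Figure D4:**
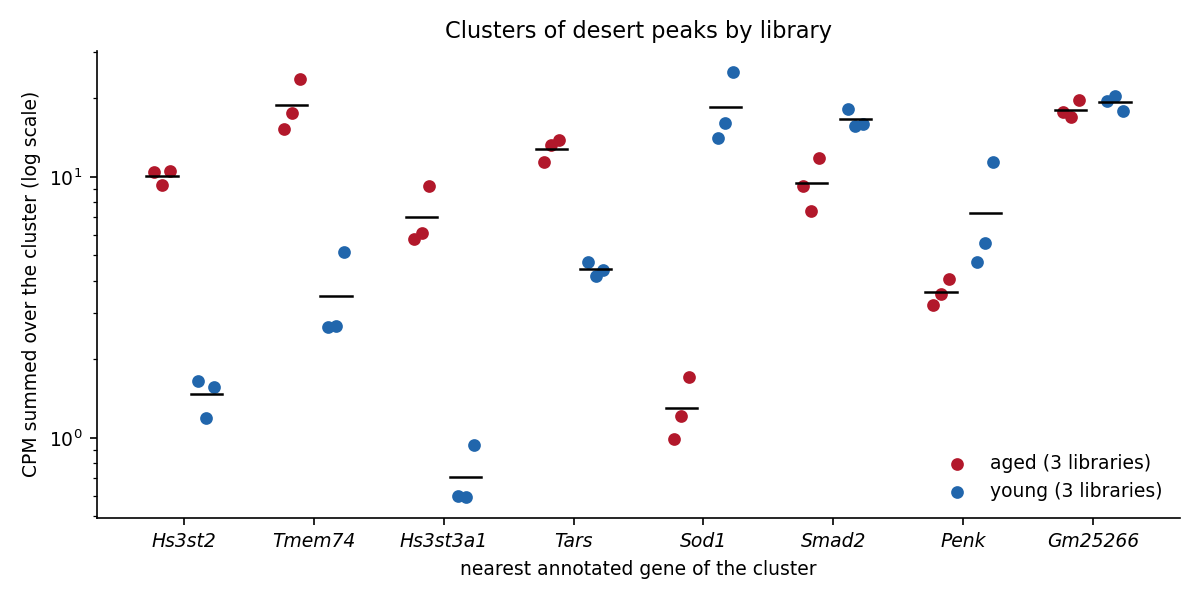
Points are the CPM of each library summed over the tested peaks of a cluster, on a log scale, with aged left of young and a bar at the mean of each age. The 4 clusters on the left are higher and those at Sod1 and Smad2 lower in aged epithelium, and the sums at Penk and Gm25266 were not called.

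Among the named clusters of 3 or more peaks, the deepest loss was at chr16:90091193-90098638. The annotation gives Sod1, the copper and zinc superoxide dismutase, as its nearest TSS, but RefSeq places these peaks inside Tiam1, an activator of the GTPase Rac. All 3 peaks were lower, with sums of 0.994, 1.21 and 1.71 CPM in aged 1, 2 and 4, against 14.0, 16.1 and 25.2 CPM in young 1, 2 and 4. Aged libraries kept little signal here and the ages were far apart, with young 4 the highest. The log2 fold change of the sum was -3.77 ± 0.24 (adjusted p = 8.74e-11, edgeR). The peak at chr16:90091193-90091555 had 0.493, 0.543 and 0.909 CPM in aged libraries, against 7.14, 7.28 and 12.3 CPM in young ones. The middle peak held only 3 counts over the aged libraries and 70 over the young ones, a young over aged ratio of 27.9 after scaling, with a 95% interval of 9.16 to 139 for counting error.

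A further 2 desert peaks on either side, chr16:90073669-90073854 and chr16:90116989-90117207, were also lower, each with 4 counts in aged libraries and 79 and 65 in young ones. Farther from Sod1, 3 tested peaks annotated to Tiam1 introns, which are not desert peaks, were lower as well. The strongest of them, chr16:89962875-89963288, had 0.0616, 0.251 and 0.341 CPM in aged libraries, against 7.37, 12.4 and 20.1 CPM in young ones. Together these 8 peaks formed an unbroken series of lower calls over 192579 bp, chr16:89924629-90117207, summing to 1.91 ± 0.433 CPM in aged and 38.8 ± 16.4 CPM in young libraries. The next tested peak on the Sod1 side, 25914 bp away, had a log2 fold change of -0.33 (adjusted p = 0.761, edgeR). Past further uncalled peaks on that side, a peak 89.2 kb from the cluster centre was called lower (log2 fold change -0.95). On the other side the adjoining tested peak had a log2 fold change of -1.15 (adjusted p = 0.435, edgeR). The Sod1 promoter had 34.3 ± 5.04 CPM in aged and 34.8 ± 8.48 CPM in young libraries (adjusted p = 0.982, edgeR). No consensus peak lay within 1000 bp of a TSS annotated to Tiam1. Over all tested peaks there were 11 unbroken series of 5 or more called peaks, 6 higher and 5 lower, and 5 of the 11 contained desert peaks. These series were looked for after the single calls had been seen.

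**Figure D5:**
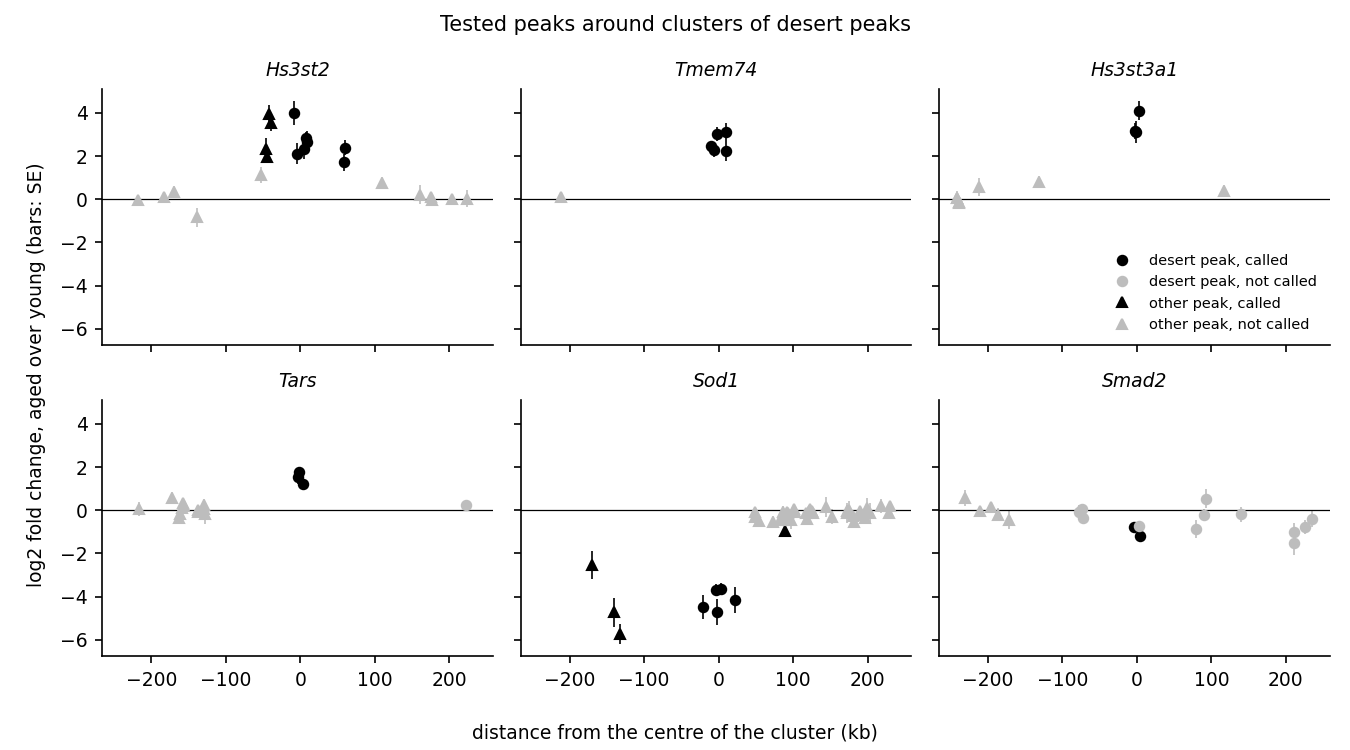
Each point is a tested peak, placed by its distance from the centre of a cluster of desert peaks (kb), with its log2 fold change of aged over young and its SE as a bar. Circles are desert peaks, triangles other peaks, and black marks called peaks. At Hs3st2 and Sod1 called peaks reach beyond the cluster, while at Tmem74, Hs3st3a1 and Tars no other peak was tested within 100 kb.

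Other lower clusters were weaker. At chr18:76448513-76456883, nearest to Smad2, which carries TGF-beta signals to the nucleus, 2 of 3 peaks were lower and the sum was 9.19, 7.38 and 11.8 CPM in aged 1, 2 and 4, against 18.2, 15.6 and 15.99 CPM in young 1, 2 and 4. The ages did not overlap there, and the log2 fold change of the sum was -0.83 ± 0.16 (adjusted p = 0.00179, edgeR). Both called peaks lost their call without aged 2 and after thinning to the shallowest library, and one of them also without young 1. The Smad2 promoter had 65.5 ± 2.30 CPM in aged and 66.0 ± 12.6 CPM in young libraries. Near Penk, which encodes proenkephalin, 1 of 3 peaks was lower (log2 fold change -1.19 ± 0.31, adjusted p = 0.0413, edgeR), a call lost under 8 of the alternatives. The sum of that cluster was 3.61 ± 0.417 CPM in aged and 7.24 ± 3.66 CPM in young libraries and was called only with the block (adjusted p = 0.0736 without it and 0.000412 with it, edgeR). The Penk promoter peak had 0.880 ± 0.229 CPM in aged and 2.15 ± 0.671 CPM in young libraries. It moved the same way but was not called (log2 fold change -1.17, adjusted p = 0.0516, edgeR). Near Gm25266, 1 of 5 peaks was lower, a call lost without aged 2 and after thinning, while the sum had a log2 fold change of -0.11 (adjusted p = 0.940, edgeR).

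On chromosome 12, 4 lower desert peaks stood among genes that carry only predicted or clone names. The largest fold of any named lower peak, at chr12:22906020-22906686 near 2410018L13Rik, was 0.370, 0.167 and 0.114 CPM in aged 1, 2 and 4, against 5.86, 6.09 and 7.17 CPM in young 1, 2 and 4. Its log2 fold change was -4.86 ± 0.32 (adjusted p = 5.38e-12, edgeR), and it rests on 12 counts in aged and 296 in young libraries. The peak over the LOC108167368 start shown above, chr12:20614829-20615148, had 1.23, 0.836 and 0.114 CPM in aged libraries, against 7.78, 5.94 and 7.64 CPM in young ones. Aged 4 was the lowest of all there. A neighbouring peak, chr12:20615288-20615556, was lower by a similar amount (log2 fold change -3.26 ± 0.60), and the peak near Gm3993, chr12:20196323-20197083, less so (-1.68 ± 0.20). These 4 peaks belonged to a pair of unbroken series of lower calls, 6 peaks over chr12:19288319-20816003 and 5 peaks over chr12:21778606-24097556. In those series the promoter-TSS peak of 1700030C10Rik had 0.795 ± 0.0561 CPM in aged and 12.3 ± 2.00 CPM in young libraries. How reads shared between near-identical gene copies were counted is not given in the sources used here, so the levels of these peaks are uncertain.

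Single desert peaks made up most of the other calls. The peak at chr10:67785339-67786141, nearest to Zfp365, a zinc finger gene, covers the whole 4930543I11Rik window with its AP-1 letters. It had 12.3, 9.11 and 14.3 CPM in aged 1, 2 and 4, against 5.35, 2.77 and 3.18 CPM in young 1, 2 and 4. Its log2 fold change was 1.59 ± 0.21 (adjusted p = 1.93e-05, edgeR). The peak over the Gm41584 window, nearest to Vegfa, the vascular endothelial growth factor, had 10.9 ± 2.14 CPM in aged and 6.98 ± 0.806 CPM in young libraries (adjusted p = 0.0466, edgeR), and this call was lost under 9 of the alternatives. Among all desert peaks over RefSeq start windows 59 were tested, with 4 higher and 1 lower, or 8.47%, where 2.77% of tested desert peaks and 1.6% of all tested peaks were called. The difference between these shares was not tested.

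A single peak at chr10:118564533-118564788 had Ifng, which encodes interferon gamma, a cytokine made mainly by T and natural killer cells, as its nearest TSS at 123613 bp. It had 2.53, 2.51 and 2.39 CPM in aged 1, 2 and 4, against 0.458, 0.347 and 0.478 CPM in young 1, 2 and 4. Both ages were tight, with a log2 fold change of 2.56 ± 0.33 (adjusted p = 6.34e-06, edgeR). The other 5 tested desert peaks nearest to Ifng were not called, and no consensus peak lay within 1000 bp of the Ifng TSS. None of the 8 leukocyte markers had a promoter peak, but neither did the epithelial marker Vil1. Such absences cannot tell which cells held the peak near Ifng, and this was not tested. The peak near Ythdf3, a reader of methylated adenosine in RNA, at chr3:16369011-16369370, had 0.185, 0.334 and 0.398 CPM in aged libraries, against 1.69, 2.28 and 4.46 CPM in young ones. Near the small nucleolar RNA gene Gm23987, a peak 915250 bp from the TSS had 0.507 ± 0.282 CPM in aged and 2.85 ± 0.589 CPM in young libraries (log2 fold change -2.45 ± 0.33, adjusted p = 1.26e-05, edgeR).

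The strongest desert peaks and the densest clusters were not called. The strongest of all, chr8:126735507-126737264, upstream of Irf2bp2, a corepressor that binds interferon regulatory factor 2, had 109, 89.5 and 94.0 CPM in aged 1, 2 and 4, against 108, 92.2 and 86.3 CPM in young 1, 2 and 4. The ages overlapped, with a log2 fold change of 0.02 ± 0.11, and the peak was as strong as the Irf2bp2 promoter (96.8 ± 4.95 CPM in aged and 102.7 ± 12.3 CPM in young libraries). The other 5 strongest, near 1700108F19Rik, Arhgap12, Gm26397, Foxp1 and Hif1a, had means of 65.4 to 73.8 CPM in aged and 61.8 to 74.8 CPM in young libraries, with log2 fold changes between -0.02 and 0.13. The cluster with the most peaks, 35 tested peaks over 145373 bp between Irf2bp2 and Gm26397, summed to 552.9 ± 51.5 CPM in aged and 555.5 ± 42.4 CPM in young libraries. A single peak of it was called, chr8:126838999-126839982, at 15.5 ± 1.75 CPM in aged and 10.1 ± 0.620 CPM in young libraries (adjusted p = 0.00899, edgeR), a call lost after thinning, without aged 4 or without young 2. A cluster of 35 peaks near Rreb1, a zinc finger factor that answers Ras signals, had 227.5 ± 19.6 CPM in aged and 226.2 ± 18.6 CPM in young libraries. The 27 peaks near Gm22970 had 217.6 ± 23.7 CPM in aged and 211.7 ± 16.4 CPM in young libraries. Of the 28 clusters with 10 or more tested peaks, 0 were called by edgeR. Of all desert clusters 2.44% were higher and 1.55% lower, and 2.15% of clusters made from all peaks were called. With only 28 clusters, the count is too small to be set against these shares.

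Few desert peaks nearest to known gene groups were called, at 1 of 30, 0 of 56, 1 of 31, 0 of 44 and 1 of 45 tested peaks over 5 lists. Of tested desert peaks 2.77% were called, and of all tested peaks 1.6%. The counts per list are too small to be set against either share. Of 30 tested desert peaks nearest to genes of Wnt, BMP, FGF, EGF and Notch signalling, 1 was higher and 0 lower, the higher one near Fzd1, a Wnt receptor, with 1.21 ± 0.279 CPM in aged and 0.303 ± 0.179 CPM in young libraries (log2 fold change 1.77 ± 0.43, adjusted p = 0.0237, edgeR). That call was lost in DESeq2 and without aged 1, aged 4 or young 2. For inflammation, interferon and antigen presentation 1 of 31 was higher, the Ifng peak. For synaptic, adhesion and axon guidance genes 1 of 45 was higher, near Cdh9, a cadherin, with 14.1 ± 0.194 CPM in aged and 9.79 ± 3.28 CPM in young libraries (adjusted p = 0.0478, edgeR), a call lost under 9 of the alternatives. For developmental transcription factors 0 of 56 and for intestinal epithelial transcription factors 0 of 44 were called. The median log2 fold changes of the 5 lists lay between -0.04 and 0.05, beside -0.0038 for all peaks. With the block, peaks near Irx1 (adjusted p = 0.0346), Irf2 (0.0432), Rreb1 (0.0358) and Cntn5 (0.00753) were also called by edgeR.

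The 4 tested peaks farthest from any TSS in the peak annotation, from 1010101 to 1017736 bp, were all upstream of Cntn5, a neural cell adhesion gene. In RefSeq the gene nearest to each of them was only 90621 to 98405 bp away. The farthest, chr9:11436580-11437073, had 7.64, 7.27 and 8.75 CPM in aged 1, 2 and 4, against 9.57, 9.95 and 15.9 CPM in young 1, 2 and 4. The ages did not overlap, but the log2 fold change of -0.51 ± 0.17 had an adjusted p of 0.164 without the block (edgeR). The other 3 had log2 fold changes between -0.86 and -0.38 and were not called either way.

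Summed over all desert peaks, accessibility did not differ detectably. They took 1.51%, 1.60% and 1.59% of counts in aged 1, 2 and 4, against 1.46%, 1.61% and 1.72% in young 1, 2 and 4. The difference of means, -0.0316 percentage points, was smaller than the spread between young libraries (exact two-sided permutation p = 0.8, adjusted p = 1 over 7 shares), and 3 libraries against 3 cannot give a p below 0.1. Without young 4 the difference was 0.0291 points. Promoter-TSS peaks took 37.6% ± 1.15 of counts in aged and 37.8% ± 2.10 in young libraries (SD, n = 3 each).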

How the data were processed

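The authors deposited unnormalised counts for every consensus peak and, per the file headers, a second table with positions, annotation classes, nearest genes and signed distances to the TSS in bp. The submitters' processing notes name BWA 0.7.17-r1188, Picard 2.23.1, MACS2 2.2.7.1, featureCounts 2.0.1 and the build GRCm38. Peak caller settings, any shift for the Tn5 offset and the treatment of reads with several matches are not given in these sources. Coordinates are GRCm38, counted from 1, from the annotation table.

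All 150646 peaks were fitted together in edgeR 4.0.16 (R 4.3.3): filterByExpr, TMM scaling, robust quasi-likelihood test with age as the only term, Benjamini-Hochberg adjustment over 129588 tested peaks, calls at adjusted p below 0.05. Log2 fold changes are aged over young, with the SE implied by the test statistic. CPM come from edgeR's cpm with TMM-scaled totals. Clusters merged desert peaks with gaps of at most 12.5 kb, and their summed counts were fitted with all other clusters. Alternatives were other scalings, filters, thresholds, distances and gaps, DESeq2 1.42.0, limma-voom (limma 3.58.1), thinning to the shallowest library, a block for the library number and leaving out each library. After subtracting the mean of each age, aged and young libraries of the same number correlated across peaks at 0.236 (number 1), 0.182 (number 2) and 0.123 (number 4), and libraries of different numbers at 0.0287 or less. All 3 exceeded 0.1, so the numbers were taken to pair the libraries. The age-only fit and the permutation test left this pairing out. Fold changes, SE and adjusted p are from the age-only fit unless the block is named. What a number stands for is not in the labels. The 6 libraries all differed from each other beyond sampling noise (chi-square per peak 1.64 to 3.81).

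On simulated counts at these depths, with 129588 peaks, the test recovered 41% of 2-fold and 89% of 4-fold changes among desert peaks, and 13 of its 143 calls were false. The simulation changed 100 desert peaks by each fold and no other peak, and its libraries were not paired. The data gave 2077 calls, so recovery in the data may differ. Named peaks are, among called desert peaks without overlap, the 10 with the smallest p in each direction, the 6 strongest, the 4 farthest, the 3 clusters with the most peaks and up to 4 per direction with at least 3 tested peaks and the most called ones, and up to 3 per gene list. Peaks over RefSeq start windows, unbroken series of calls and called peaks beyond these were picked after their values were seen. The members and lists were chosen with earlier results of these data known. No genome was used here, so peak sequences are not printed.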

Additional observations from a re-analysis of the deposited data

How the results depend on the processing

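Of 37 named peaks that were called, 25 kept their call in all alternatives in which they were tested and 12 lost it in at least 1. None of the 58 named peaks reversed, and 4 gained a call, all with the replicate block. Against 68 higher calls, DESeq2 gave 37, the replicate block 108, thinning to the shallowest library 21, an adjusted p below 0.01 41, a distance over 50 kb 149 and over 200 kb 12. Leaving out 1 library gave 36 to 78. Against 34 lower calls, a mean count of at least 20 gave 20, the block 71, thinning 13, over 50 kb 60 and over 200 kb 7, and leaving out 1 library 25 to 36. At 100 to 200 kb (83 calls), the mean count filter gave 53, DESeq2 55, the block 131, thinning 27 and leaving out 1 library 53 to 84. At 200 to 500 kb (15 calls), DESeq2 gave 7, the block 41, thinning 5 and leaving out 1 library 6 to 18. Fewer libraries or fewer reads are built into leaving out and thinning, and the cause of the other shifts was not tested. Of clusters, 41 higher became 76 and 26 lower became 62 with the block, and leaving out 1 library gave 23 to 48 and 17 to 29. DESeq2's 64 calls, limma-voom's 91 and the 68 under the mean count filter were all among the 102. The median log2 fold change of desert peaks lay between -0.067 and 0.0082 over all alternatives, and the difference in share of counts between -0.10 and 0.0291 points when 1 library was left out, above 0 only without young 4. Depth also sets a limit, with a median of 9 counts per desert peak in young 4, so a change that was not called may have been too small to detect.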

Other observations

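Several pairs of neighbouring desert peaks were called together and are given here as values. At chr10:118713039-118714547, 146447 to 147681 bp from 4932442E05Rik, both peaks were higher, summing to 4.32 ± 0.629 CPM in aged and 1.65 ± 0.357 CPM in young libraries (log2 fold change 1.46 ± 0.25, adjusted p = 0.000733, edgeR). A pair near Gm25344, chr17:65076092-65077239, had 2.38 ± 0.422 CPM in aged and 0.628 ± 0.215 CPM in young libraries. A pair near 4930426D05Rik, chr18:21535321-21535903, had 3.46 ± 0.899 CPM in aged and 1.25 ± 0.142 CPM in young libraries. The pair near 1700056E22Rik, chr1:184138779-184140978, was stronger and changed less, with 25.9 ± 3.08 CPM in aged and 15.3 ± 1.87 CPM in young libraries (log2 fold change 0.79 ± 0.12). Lower pairs lay near Gm13464, chr2:43404273-43404888, with 0.339 ± 0.186 CPM in aged and 2.38 ± 0.237 CPM in young libraries, and near Ythdf3, chr3:16369011-16369994, with 0.986 ± 0.587 CPM in aged and 5.27 ± 2.45 CPM in young libraries. In a cluster of 7 tested peaks near Pitx1, a homeobox gene known for hindlimb development, 2 peaks were higher while the sum was not called (log2 fold change 0.39 ± 0.15, adjusted p = 0.263, edgeR). These pairs were picked after their values were seen.

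Desert peaks inside RefSeq genes had 27 calls among 855 tested (3.16%), and those outside had 75 among 2831 (2.65%). Among those outside, peaks over 100 kb from every RefSeq gene had 26 among 509 (5.11%), 17 higher and 9 lower. Of all tested peaks 1.6% were called, and the differences between these shares were not tested.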
